A study of Homo sapiens with 8 samples.

Results

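Homologous recombination and the Fanconi pathway were followed through 28 genes, picked by name from the 58302 genes of the deposited tables: BRCA1, BRCA2 and the proteins that work with them, the strand exchange genes RAD51AP1, RAD51C, RAD54L, XRCC2 and XRCC3, 5 Fanconi genes, EXO1, BLM, MSH6, the checkpoint kinases, the RPA subunits and the MRN complex. All 28 were in the tables and all 28 were among the 17676 genes that passed the filter on low counts.

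RNA was sequenced from A549, an established human lung adenocarcinoma line with wild-type p53, in 4 groups of 2 libraries. The drug groups were a control and cells given 40 nM TP-0903, a compound made to block the kinase activity of AXL, a growth factor receptor. The hairpin groups were cells with a control shRNA and cells with an AXL shRNA, which directs degradation of the AXL message. The study set out to find pathways of resistance to TP-0903. Each library carried a P number, 17 or 4 in the drug groups and 15 or 3 in the hairpin groups. Neither the meaning of that number nor the agent given to the control is known from these sources. The same holds for exposure times, hairpin sequences and whether hairpin cells were pools or clones. The libraries are described as biological replicates, but nothing says that they came from separate cultures, so p-values measure only the spread between these samples. The drug and hairpin groups shared no P number, so that a difference between a hairpin group and a drug group cannot be told apart from a difference between the experiments.

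A broken DNA end is found by the MRN complex, trimmed by nucleases such as EXO1, coated with RPA and then prepared for strand exchange by BRCA2, which BRCA1 and PALB2 bring to the site. The Fanconi core complex marks FANCD2 and FANCI with ubiquitin where strands are crosslinked, and recombination finishes the repair. This route needs a sister chromatid as template, so it belongs to the S and G2 phases, and many of its genes are transcribed most strongly in dividing cells through E2F factors.

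The libraries held 30067011 to 44217023 expected counts, and levels are given as CPM (a gene's share of a library's counts after TMM scaling), in the order P17 and P4 for the drug groups and P15 and P3 for the hairpin groups. Every one of the 28 genes had at least 39.0 expected counts in each library. AXL itself stood at 85.1 and 139 CPM with the control shRNA and at 55.4 and 63.0 CPM with the AXL shRNA, lower in both libraries, with a log2 fold change of -0.92 that missed the threshold of 0.05 (adjusted p = 0.12, edgeR) and passed it with the P number as a replicate block (-0.89, adjusted p = 0.00086). In the control and TP-0903 groups AXL was at 216 and 105 CPM and at 280 and 153 CPM, and these groups overlapped (0.43, adjusted p = 0.54; with the block 0.46, adjusted p = 0.035). Of 10 lung epithelial markers 7 passed the filter, and the 10 summed to 8597 and 10072 CPM in the control, 11397 and 12499 CPM with TP-0903, 6955 and 6189 CPM with the control shRNA and 24343 and 20497 CPM with the AXL shRNA. The surfactant genes SFTPB and SFTPC and the lung factor NKX2-1 were at 0.437 CPM or below in all 8 libraries. Of 13 markers of blood, endothelial and stromal cells 7 passed the filter, and the 13 summed to 36.0 and 38.3 CPM in the control, 83.3 and 71.7 CPM with TP-0903, 53.1 and 44.98 CPM with the control shRNA and 67.3 and 77.5 CPM with the AXL shRNA. ACTA2, a smooth muscle actin, rose with TP-0903 from 13.6 and 19.1 CPM to 71.1 and 55.7 CPM, 1.95 (SE 0.19, adjusted p = 0.0013). With the AXL shRNA COL1A1, a collagen, rose from 12.1 and 10.1 CPM to 18 and 36.7 CPM, 1.30 (SE 0.35, adjusted p = 0.025), as did CD79A and HBA1, which stayed at 3.05 CPM or below, and CD14 fell from 7.35 and 6.11 CPM to 2.48 and 3.10 CPM, -1.27 (SE 0.37, adjusted p = 0.031). The part of these markers in the changes of the 28 genes was not tested. PTPRC, the common leukocyte marker, was at 0.0617 CPM or below.

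With TP-0903 most of the recombination and Fanconi genes were expressed less. Of the 28, 22 fell and 0 rose, where 6.35% of all tested genes fell and 4.9% rose. The median of the 28 was -1.59 on the log2 scale, against -0.02 over all tested genes, and the sum of their levels went from 1882 and 1609 CPM in the control to 747 and 805 CPM. In 27 of the 28 both treated libraries lay below both controls, which was the case for 30.9% of all tested genes. The 6 genes that missed the threshold were PALB2, ATM, ATR, RPA2, NBN and RAD50. In bulk RNA, fewer cells that transcribe a gene and less of its RNA per cell cannot be told apart.

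**Figure D1:**
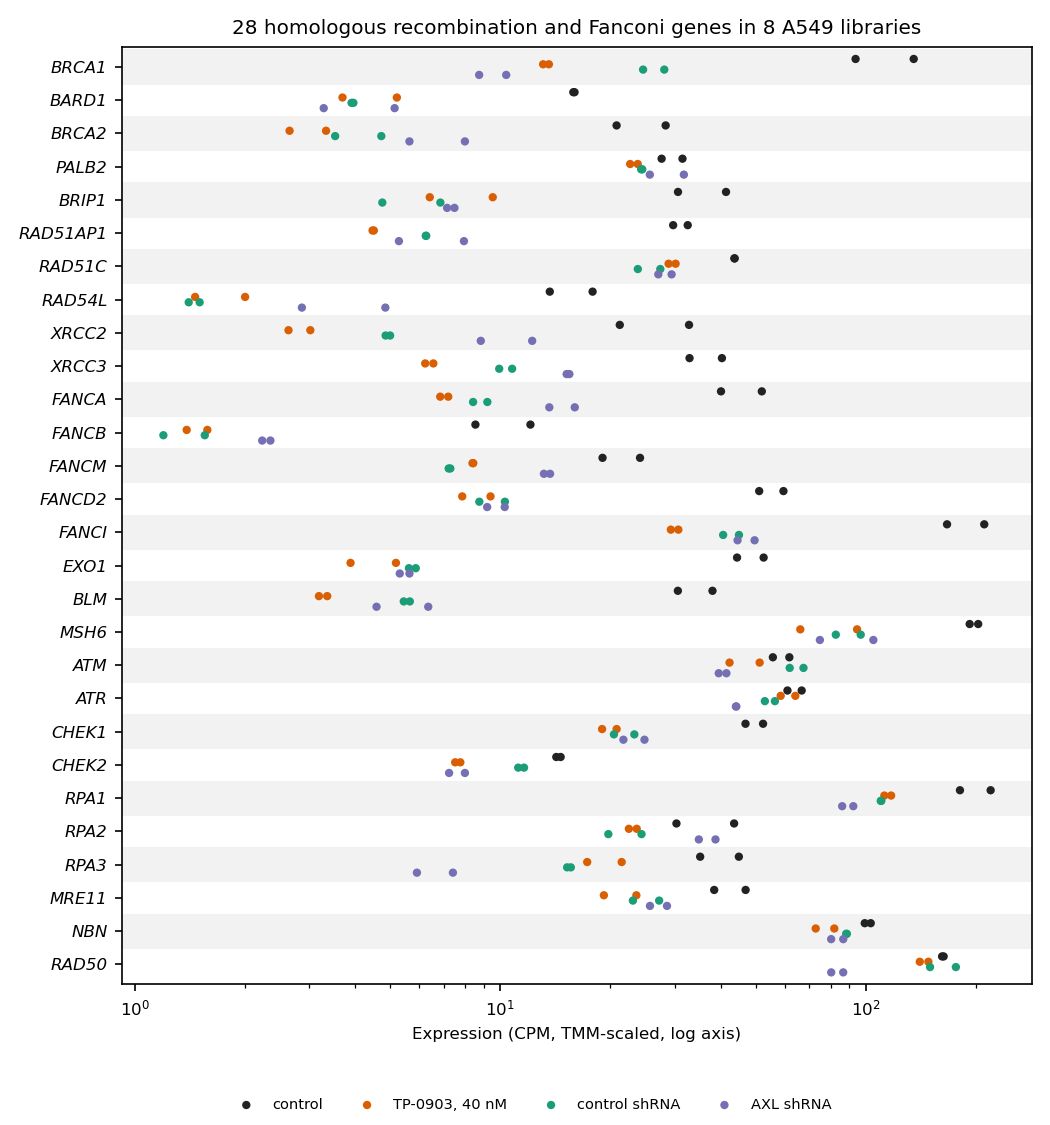
Level of each of the 28 genes (CPM, TMM-scaled, log axis) in the 8 libraries, 1 point a library, coloured by group. The control libraries lie to the right of the other 3 groups for most genes, as for EXO1 at 52.5 and 44.4 CPM, whereas ATM, ATR, NBN and RAD50 vary less across groups, with the AXL shRNA points of ATM and RAD50 low and ATM in TP-0903 P17 beside them at 42.3 CPM.

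Among BRCA1 and its partners, BRCA1, the ubiquitin ligase that directs breaks towards recombination, was at 135 and 93.6 CPM in the control and at 13.6 and 13.1 CPM with TP-0903, a fall of 8.57-fold with a log2 change of -3.10 (SE 0.20, adjusted p = 0.00047). BRCA2, which prepares the coated strand for exchange, went from 28.3 and 20.8 CPM to 2.65 and 3.34 CPM, -3.03 (SE 0.29, adjusted p = 0.0012). BARD1, the obligate partner of BRCA1, went from 16 and 15.8 CPM to 3.70 and 5.21 CPM, -1.83 (SE 0.27, adjusted p = 0.007). For all of these the treated and control libraries were far apart. BRIP1, a helicase that binds BRCA1, fell from 41.4 and 30.6 CPM to 9.54 and 6.42 CPM, -2.17 (SE 0.27, adjusted p = 0.0037). PALB2, the bridge between BRCA1 and BRCA2, differed from the others: it stood at 31.5 and 27.6 CPM and 22.7 and 23.8 CPM, -0.35 (SE 0.14, adjusted p = 0.16), below the control in both libraries but not past the threshold.

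The 5 strand exchange genes all fell. XRCC2, which helps strand exchange begin, was at 32.8 and 21.2 CPM in the control and 3.02 and 2.64 CPM with the drug, -3.25 (SE 0.28, adjusted p = 0.0008). RAD54L, the motor protein that acts as a strand invades its template, went from 17.9 and 13.7 CPM to 2.01 and 1.46 CPM, -3.18 (SE 0.33, adjusted p = 0.0017). RAD51AP1, which stimulates strand exchange, went from 32.5 and 29.7 CPM to 4.47 and 4.51 CPM, -2.79 (SE 0.22, adjusted p = 0.00066). In each of these 3 genes both treated libraries lay far below both controls. XRCC3, which forms a complex with RAD51C, fell from 40.4 and 32.9 CPM to 6.23 and 6.56 CPM, -2.52 (SE 0.16, adjusted p = 0.00047). RAD51C fell least of these, from 43.7 and 43.7 CPM to 30.2 and 28.9 CPM, -0.57 (SE 0.12, adjusted p = 0.025). RAD51C also had more message per length than XRCC2, at 82.1 and 87.1 TPM in the control against 11.5 and 7.47 TPM.

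All 5 Fanconi genes fell. FANCD2, the protein that is ubiquitinated at crosslinks, went from 59.5 and 51.0 CPM to 7.87 and 9.40 CPM, -2.68 (SE 0.17, adjusted p = 0.00047). Its partner FANCI went from 210.4 and 167 CPM to 30.7 and 29.3 CPM, -2.65 (SE 0.15, adjusted p = 0.00047). The core complex subunits FANCA and FANCB kept close to these sizes: FANCA fell from 51.9 and 40.1 CPM to 6.85 and 7.21 CPM, -2.71 (SE 0.18, adjusted p = 0.00049), and FANCB from 12.1 and 8.55 CPM to 1.39 and 1.58 CPM, -2.79 (SE 0.28, adjusted p = 0.0014). FANCM, the translocase that anchors the core complex on DNA, fell less, from 24.1 and 19 CPM to 8.39 and 8.44 CPM, -1.36 (SE 0.16, adjusted p = 0.0032). Per length FANCI was the most abundant of the 28 in the control, at 108 and 92.6 TPM, while BRCA2 had 4.24 and 3.10 TPM and BARD1 4.45 and 4.52 TPM, the lowest values of the 28 there.

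The largest falls were in the enzymes that process ends and intermediates. EXO1, the exonuclease that lengthens resected ends, encoded on chromosome 1 (241847967 to 241895148), went from 52.5 and 44.4 CPM to 5.18 and 3.90 CPM, a 10.7-fold fall with a log2 change of -3.41 (SE 0.19, adjusted p = 0.00047). BLM, the helicase that unwinds ends and dissolves crossed strands, went from 38.0 and 30.6 CPM to 3.36 and 3.19 CPM, -3.39 (SE 0.22, adjusted p = 0.00047). MSH6, a mismatch sensor, fell less, from 203 and 192 CPM to 66.1 and 94.5 CPM, -1.30 (SE 0.22, adjusted p = 0.011), and its treated libraries differed from each other more than those of EXO1 in absolute terms.

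The checkpoint kinases split. CHEK1, which ATR activates when replication stalls, went from 52.3 and 46.8 CPM to 20.8 and 19 CPM, -1.32 (SE 0.14, adjusted p = 0.0017). CHEK2, which ATM activates at breaks, went from 14.2 and 14.6 CPM to 7.78 and 7.53 CPM, -0.91 (SE 0.15, adjusted p = 0.01). The apical kinases did not pass the test: ATM was at 61.7 and 55.6 CPM and 42.3 and 51.2 CPM, -0.33 (SE 0.13, adjusted p = 0.14), and ATR at 66.7 and 61.0 CPM and 58.4 and 64.1 CPM, -0.06 (SE 0.10, adjusted p = 0.76). ATR was the single gene of the 28 whose treated and control libraries overlapped.

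Of the RPA subunits, which coat single-stranded DNA as a trimer, RPA1 fell from 219 and 181 CPM to 117 and 112 CPM, -0.80 (SE 0.12, adjusted p = 0.0076), and RPA3 from 44.9 and 35.2 CPM to 17.3 and 21.5 CPM, -1.05 (SE 0.19, adjusted p = 0.014). RPA2 was at 43.6 and 30.3 CPM and 23.6 and 22.5 CPM, -0.68 (SE 0.19, adjusted p = 0.065), short of the threshold. In the MRN complex, MRE11, the nuclease, fell from 46.8 and 38.4 CPM to 19.2 and 23.6 CPM, -1.0 (SE 0.17, adjusted p = 0.011). Its scaffold RAD50 was at 163 and 161 CPM and 140.2 and 148 CPM, -0.17 (SE 0.11, adjusted p = 0.38), and NBN, the subunit that recruits ATM, at 99.2 and 103 CPM and 72.8 and 81.9 CPM, -0.39 (SE 0.10, adjusted p = 0.056). With the P number as a replicate block, RPA2 and NBN passed as well (adjusted p = 0.0082 and 0.020), which gave 24 falls. Of all 17676 tested genes 2362 fell in that fit, against 1123 without the block. RPA2 and NBN also passed with DESeq2 (adjusted p = 0.024 and 0.026).

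Of the 22 falls, 15 passed under every alternative and without each library in turn. The other 7 lost the call without at least 1 library: BARD1 without TP-0903 P17 (adjusted p = 0.063), MSH6, MRE11 and RPA3 without control P17 or TP-0903 P17, RPA1 without either of these or TP-0903 P4, and RAD51C and CHEK2 without any one of the 4, so that 15 fell without TP-0903 P17 and 16 without control P17. BARD1 and RAD51C also lost the call with effective transcript lengths as offsets (-1.68, adjusted p = 0.060, and -0.46, adjusted p = 0.066).

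The control shRNA libraries, too, held little of most of these messages. They were compared with the plain control, which is also the reference for TP-0903, so the 2 comparisons share libraries and each is given by its own values. Of the 28 genes 21 were lower with the control shRNA and 0 higher, where 6.09% of all tested genes were lower and 3.06% higher. The median was -1.70 on the log2 scale against 0.02 over all tested genes. In 26 genes both control shRNA libraries lay below both controls, as in 28.4% of all tested genes. Hairpin, delivery and experiment cannot be told apart here.

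EXO1 was at 5.87 and 5.63 CPM with the control shRNA, -3.07 (SE 0.19, adjusted p = 0.00073) against the control. RAD54L was at 1.51 and 1.41 CPM, -3.43 (SE 0.33, adjusted p = 0.0017), the lowest fold of the 28. FANCB was at 1.20 and 1.56 CPM, -2.90 (SE 0.28, adjusted p = 0.0016). In all 3 both control shRNA libraries lay far below both controls. FANCD2 was at 8.76 and 10.3 CPM, -2.53 (SE 0.17, adjusted p = 0.00073), and BLM at 5.66 and 5.45 CPM, -2.63 (SE 0.21, adjusted p = 0.00089). BRCA1 was at 28.1 and 24.6 CPM, -2.12 (SE 0.19, adjusted p = 0.0013), where the TP-0903 libraries had 13.6 and 13.1 CPM. BRCA2 stood at 3.54 and 4.73 CPM, -2.57 (SE 0.28, adjusted p = 0.0024), and BRIP1 at 6.86 and 4.76 CPM, -2.63 (SE 0.28, adjusted p = 0.0022).

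Differences were smaller for the kinases, the RPA and MRN genes and MSH6. CHEK1 was at 20.4 and 23.3 CPM, -1.18 (SE 0.14, adjusted p = 0.0032), and MSH6 at 82.7 and 96.7 CPM, -1.14 (SE 0.22, adjusted p = 0.024). RPA1 was at 110.1 and 109.7 CPM, -0.86 (SE 0.12, adjusted p = 0.007). RPA3 was at 15.6 and 15.2 CPM, -1.38 (SE 0.19, adjusted p = 0.0067). MRE11 and RAD51C passed the threshold with the smallest differences, MRE11 with -0.76 (SE 0.17, adjusted p = 0.034) and RAD51C with -0.77 (SE 0.12, adjusted p = 0.01). ATM at 67.4 and 61.8 CPM and RAD50 at 149.6 and 176 CPM were the genes that were not lower, ATM with 0.14 (SE 0.13, adjusted p = 0.52) and RAD50 with 0.01 (SE 0.11, adjusted p = 0.98). PALB2, ATR, CHEK2, RPA2 and NBN were at -0.19 to -0.74 and did not pass. BARD1 depended on how transcript length was treated: its call was lost with effective lengths as offsets (-1.05, adjusted p = 0.198) and on the log2(TPM + 1) scale (-0.85, adjusted p = 0.13), and BRCA2's with effective lengths (-1.63, adjusted p = 0.093). MRE11 lost it in a fit of these 4 libraries alone (-0.77, adjusted p = 0.066). The effective length of BARD1 ran from 1748 to 5012 bases between libraries and that of BRCA2 from 4867 to 11444 bases. Of the 21 calls, 14 passed under every alternative, and leaving out 1 library left 15 to 21, with 15 without control shRNA P15 and 17 without control P17.

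Since so many of the genes moved together, their promoters were read from RefSeq (GRCh38.p14), 250 bases before to 50 after each start. Entries were found for 24 of the 28 genes, at 34 starts. Shown are the 4 genes that, among those with an entry, had the smallest p for control shRNA against control, and RAD50, added after its values were seen as a gene that did not move there. Capitals mark 8-base words of E2F sites, searched as TTTCGCGC, TTTGGCGC, TTCCCGCC and TTCCCGCG on both strands.
EXO1, chr1:241847954-241848253, plus strand: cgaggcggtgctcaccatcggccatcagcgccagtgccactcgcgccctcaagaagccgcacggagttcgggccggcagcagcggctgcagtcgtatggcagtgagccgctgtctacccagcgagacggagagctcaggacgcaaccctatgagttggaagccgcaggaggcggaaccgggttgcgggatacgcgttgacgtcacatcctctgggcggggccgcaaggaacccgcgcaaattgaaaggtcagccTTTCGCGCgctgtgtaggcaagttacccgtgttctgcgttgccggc
FANCD2, chr3:10026187-10026486, plus strand: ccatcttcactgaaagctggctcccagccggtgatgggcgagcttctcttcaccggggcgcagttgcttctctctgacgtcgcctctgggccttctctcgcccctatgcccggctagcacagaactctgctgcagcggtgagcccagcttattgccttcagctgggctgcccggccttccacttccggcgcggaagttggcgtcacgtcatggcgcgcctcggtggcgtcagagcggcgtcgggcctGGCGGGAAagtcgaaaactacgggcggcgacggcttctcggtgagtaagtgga
BLM, chr15:90717096-90717395, plus strand: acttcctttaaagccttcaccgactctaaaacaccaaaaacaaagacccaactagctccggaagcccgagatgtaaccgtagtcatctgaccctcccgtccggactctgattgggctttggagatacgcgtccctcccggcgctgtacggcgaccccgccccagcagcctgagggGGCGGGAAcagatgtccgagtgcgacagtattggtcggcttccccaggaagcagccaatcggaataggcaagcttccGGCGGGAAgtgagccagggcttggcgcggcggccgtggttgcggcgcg
FANCA, chr16:89816598-89816897, minus strand: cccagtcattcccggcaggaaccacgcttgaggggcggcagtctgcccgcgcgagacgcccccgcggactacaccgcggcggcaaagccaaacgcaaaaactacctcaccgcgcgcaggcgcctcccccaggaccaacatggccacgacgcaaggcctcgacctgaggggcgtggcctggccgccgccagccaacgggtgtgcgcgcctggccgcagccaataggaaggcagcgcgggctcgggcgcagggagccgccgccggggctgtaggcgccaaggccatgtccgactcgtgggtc
RAD50, chr5:132556727-132557026, plus strand: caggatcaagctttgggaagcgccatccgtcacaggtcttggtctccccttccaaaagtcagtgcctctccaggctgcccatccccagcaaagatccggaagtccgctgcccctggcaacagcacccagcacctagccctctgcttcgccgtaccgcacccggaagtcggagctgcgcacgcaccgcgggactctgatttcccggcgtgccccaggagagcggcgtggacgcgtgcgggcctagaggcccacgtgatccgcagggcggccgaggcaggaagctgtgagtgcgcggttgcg

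The word lay within a few bases of the start in 3 of these. In EXO1 it began at +5, in FANCD2 at -3, and in BLM 1 word began at -75 and another at +3. A second listed start of EXO1, at chr1:241848481-241848780, held none, nor did the windows of FANCA and RAD50. Over all entries 11 of 24 genes held such a word (45.8%), among them BRCA1 at -48, BRIP1 at +2, BARD1 at +4, RAD51AP1 at -22, XRCC2 at +21 and XRCC3 at -3. Of 35116 promoters of this length 5.75% held one, and of their 27305 genes 6.89%. All 11 were among the 20 genes with an entry that fell with TP-0903, and 0 were among the 4 that did not pass there, PALB2, ATM, ATR and RAD50. The classes come from calls in these same data, and with 4 genes in the smaller the split was not tested. The promoters compared were not matched for base content. The shorter word CCAAT, on either strand, was in 15 of the 24 genes (62.5%, against 39.7% of all genes), including ATM and PALB2. The words TTTGAA and TTCGAA of the cell cycle homology region were in 2 of 24 genes (8.33%, against 19.5%), ATM and BRIP1. A matching word is a stretch of letters in these windows, and no binding was measured.

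**Figure D2:**
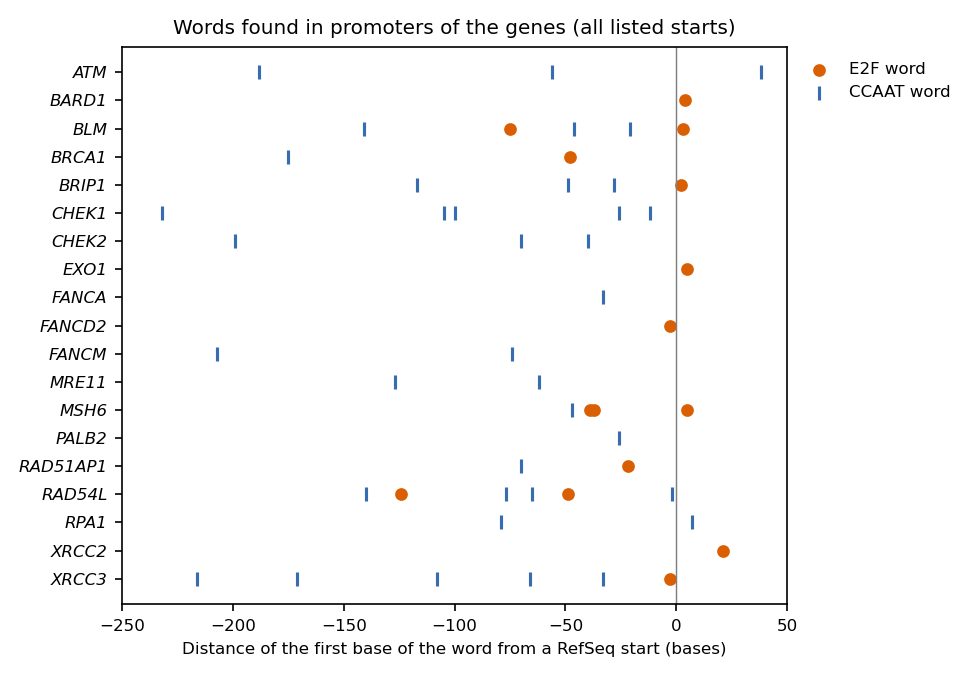
Distance in bases from each listed RefSeq start to the first base of each E2F word (orange circles) and CCAAT word (blue bars), for the 19 genes with a word. The E2F distances lie between -124 and +21, 13 of the 15 within 50 bases of a start. They are counted per listed start, so where windows overlap the same word appears more than once. This holds for RAD54L at -49 and -124 and for MSH6 at -37 and -39.

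Against the control shRNA, the AXL shRNA moved the genes in both directions. Of the 28, 6 rose and 5 fell, where 18.5% of all tested genes rose and 19% fell, so the share of the 28 was near that of all genes. Their median was 0.09, against -0.01 over all genes. The genes that rose were RAD54L, XRCC2, XRCC3, FANCA, FANCM and RPA2, and those that fell were BRCA1, ATM, CHEK2, RPA3 and RAD50. The 2 groups stand on the same low base described above, and none of the rises returned a gene to its control level except RPA2, whose 34.9 and 38.8 CPM lay within the 43.6 and 30.3 CPM of the control.

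BRCA1, on the minus strand of chromosome 17 (43044295 to 43170245, GRCh38), fell most. It was at 28.1 and 24.6 CPM with the control shRNA and 8.75 and 10.4 CPM with the AXL shRNA, 2.75-fold lower, -1.46 (SE 0.19, adjusted p = 0.0017). Between libraries of the same P number it kept 31.2% (P15) and 42.2% (P3) of its message. RPA3 went from 15.6 and 15.2 CPM to 5.92 and 7.42 CPM, -1.21 (SE 0.19, adjusted p = 0.0034). RPA2 rose from 19.7 and 24.3 CPM to 34.9 and 38.8 CPM, 0.74 (SE 0.19, adjusted p = 0.022), and RPA1 was at 110.1 and 109.7 CPM and 86 and 92.3 CPM, -0.30 (SE 0.12, adjusted p = 0.086), lower in both libraries. RPA1 passed as a fall with effective lengths (-0.40, adjusted p = 0.043) and on the log2(TPM + 1) scale (-0.60, adjusted p = 0.0089). RAD50, on chromosome 5 (132556019 to 132646344), went from 149.6 and 176 CPM to 80.3 and 86.6 CPM, -0.96 (SE 0.12, adjusted p = 0.0012), while MRE11, its partner, was at 27.2 and 23.0 CPM and 28.6 and 25.7 CPM, 0.11 (SE 0.17, adjusted p = 0.63). NBN was at 88.6 and 88.2 CPM and 86.6 and 80.3 CPM, -0.08 (SE 0.10, adjusted p = 0.56).

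Of RAD50's exonic bases 79.7% are also annotated, on the same strand, to the gene AC116366.3, whose level was 8.49 and 12.3 CPM with the control shRNA and 3.32 and 1.33 CPM with the AXL shRNA (-2.17, adjusted p = 0.012). RAD50 itself had 80.3 CPM or more in these libraries. No alternative fit took up this overlap, and the division of reads between both genes was not tested. That limit holds for every RAD50 value given here.

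Of the kinases, ATM and CHEK2 fell. ATM went from 67.4 and 61.8 CPM to 41.5 and 39.6 CPM, -0.67 (SE 0.13, adjusted p = 0.0062), and CHEK2 from 11.2 and 11.6 CPM to 7.25 and 8.0 CPM, -0.58 (SE 0.15, adjusted p = 0.02). ATR was at 56.3 and 52.9 CPM and 44.1 and 44.2 CPM, -0.31 (SE 0.10, adjusted p = 0.052), lower in both libraries and just short of the threshold. CHEK1 was at 20.4 and 23.3 CPM and 21.7 and 24.8 CPM, 0.09 (SE 0.14, adjusted p = 0.63), with groups that overlapped.

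Apart from RPA2, the rises were in strand exchange and Fanconi genes. RAD54L, on chromosome 1 (46247688 to 46278473), went from 1.51 and 1.41 CPM to 2.87 and 4.85 CPM, 2.65-fold, 1.41 (SE 0.32, adjusted p = 0.013). XRCC2 went from 4.86 and 5.00 CPM to 8.85 and 12.2 CPM, 1.10 (SE 0.26, adjusted p = 0.015). FANCM went from 7.23 and 7.30 CPM to 13.2 and 13.7 CPM, 0.89 (SE 0.16, adjusted p = 0.0058), and FANCA from 8.43 and 9.22 CPM to 13.6 and 16 CPM, 0.75 (SE 0.17, adjusted p = 0.013). All 4 stayed below both control libraries, which for FANCA had 51.9 and 40.1 CPM. XRCC3 went from 9.93 and 10.8 CPM to 15.2 and 15.4 CPM, 0.56 (SE 0.15, adjusted p = 0.022). XRCC3 shares 76.7% of its exonic bases with KLC1 on the opposite strand, and the sources used here do not say whether strand was used in counting. KLC1 was at 91.5 and 88.3 CPM with the control shRNA and 172 and 180 CPM with the AXL shRNA (0.97, adjusted p = 0.0013), so the rise of XRCC3 is uncertain. For RAD54L 25.1% of exonic bases overlap LRRC41 on the opposite strand. LRRC41 rose too, from 57.3 and 58.2 CPM to 89.2 and 91.7 CPM (0.65, adjusted p = 0.0021), so the rise of RAD54L is also uncertain.

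The remaining genes showed no change past the threshold. BRCA2 was at 3.54 and 4.73 CPM and 5.65 and 8.0 CPM, 0.72 (SE 0.27, adjusted p = 0.072), and FANCB at 1.20 and 1.56 CPM and 2.23 and 2.35 CPM, 0.73 (SE 0.27, adjusted p = 0.07), both above in both libraries. EXO1, BLM, FANCD2, FANCI, MSH6, RAD51AP1 and BARD1 lay between -0.07 and 0.14 with overlapping groups. PALB2, BRIP1 and RAD51C were at 0.24, 0.34 and 0.14. With the P number as a replicate block, BRCA2 (adjusted p = 0.018), FANCB (0.046), RPA1 (0.038) and ATR (0.039) passed as well. BRCA2 also passed with DESeq2 (adjusted p = 0.042) and with no filter on low counts (0.031).

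The falls of BRCA1, ATM, RPA3 and RAD50 passed under every alternative and without each library in turn, though none of these took up the overlap of RAD50. The rises were less firm: on the log2(TPM + 1) scale, where the median of all genes was -0.15, 0 of the 28 rose and 7 fell. Of all genes 2008 rose and 4404 fell on that scale, against 3275 and 3352 in the counts. In the counts, 1 of the 28 rose without control shRNA P15, 1 without AXL shRNA P3, 3 without control shRNA P3 and 4 without AXL shRNA P15. XRCC3 lost its call with effective lengths and in a fit of the 4 hairpin libraries alone, and CHEK2 in that fit (adjusted p = 0.071) and with no filter on low counts (0.060). CHEK2 also lost it without each of the 4 hairpin libraries (adjusted p = 0.051 to 0.090).

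**Figure D3:**
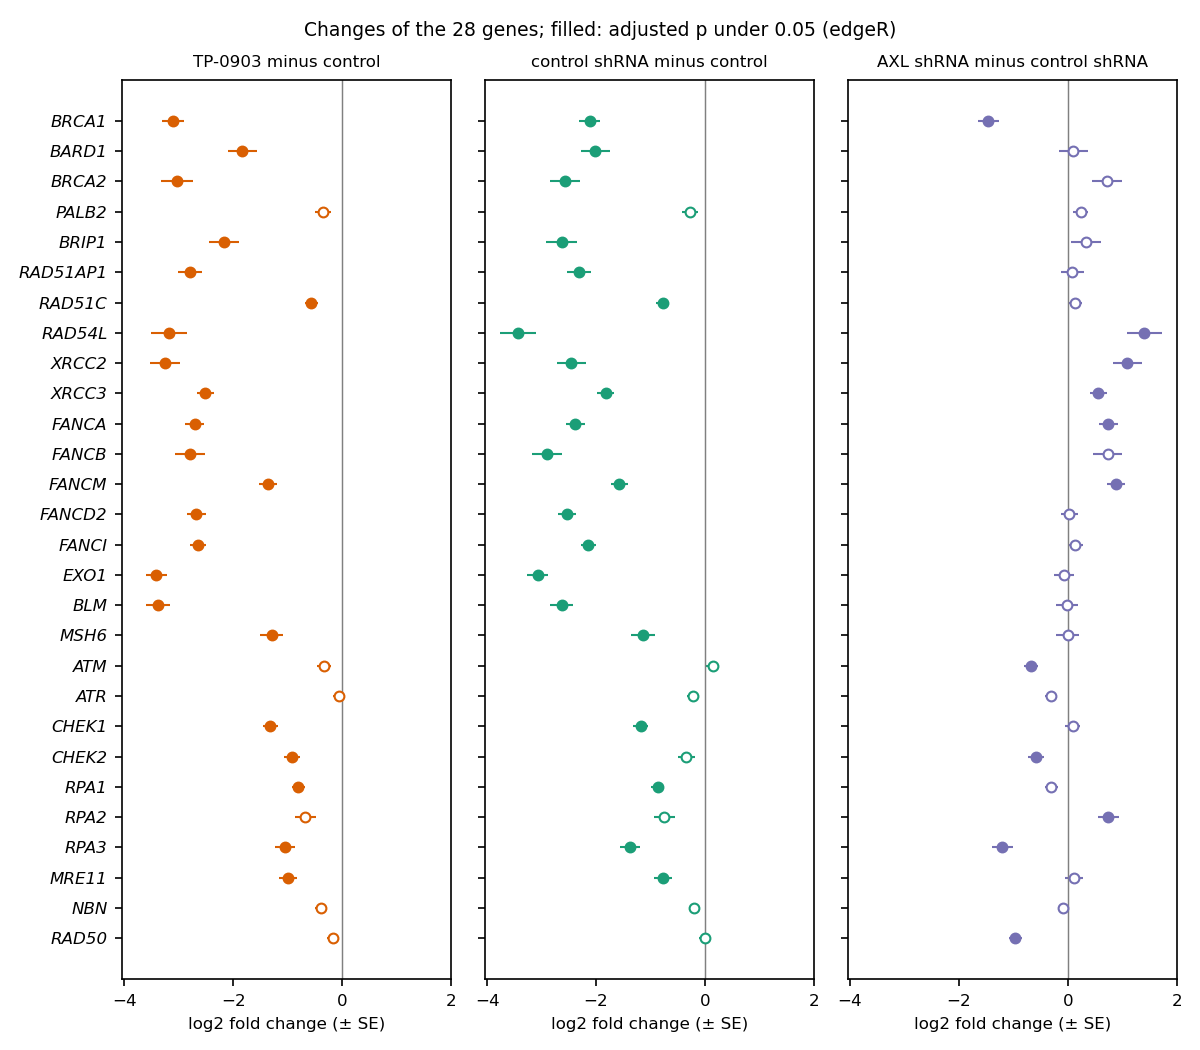
Log2 fold change of each of the 28 genes in 3 comparisons, with bars of 1 SE, filled where the edgeR adjusted p was under 0.05. The points of the first 2 panels lie to the left of 0 for nearly all genes, down to -3.43 for RAD54L with the control shRNA, while the AXL shRNA panel spreads on both sides, from -1.46 for BRCA1 to 1.41 for RAD54L.

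The effects of the drug and the hairpin on these genes were then compared with an interaction term, TP-0903 effect minus AXL shRNA effect. Of the 28, 20 had a lower effect with TP-0903 and 1 a higher one, against 10.8% and 9.82% of all tested genes. The median difference was -1.79. The term also holds the gap between the 2 reference groups, control shRNA minus control, whose median over the 28 was -1.70. Set directly against each other, AXL shRNA minus TP-0903, the treated groups had a median of 0.25. A difference of effects therefore cannot be told apart from the different starting points of the 2 experiments. On the log2(TPM + 1) scale 2207 of all genes were higher and 1266 lower, against 1736 and 1909 in the counts, and 18 of the 28 were lower. The largest were RAD54L at -4.59 (SE 0.46, adjusted p = 0.0016), XRCC2 at -4.35 (SE 0.38, adjusted p = 0.0012) and BRCA2 at -3.76 (SE 0.39, adjusted p = 0.0017), genes that fell with the drug and had positive values with the AXL shRNA. BRCA1, which fell in both, differed by -1.64 (SE 0.27, adjusted p = 0.007). Its level did not end lower with the drug: 13.6 and 13.1 CPM with TP-0903, 8.75 and 10.4 CPM with the AXL shRNA. The falls started from 135 and 93.6 CPM in the control and 28.1 and 24.6 CPM with the control shRNA. RAD50 was the 1 gene with a higher effect, at 0.79 (SE 0.16, adjusted p = 0.015), since it fell with the AXL shRNA and not with TP-0903. Its call was lost without AXL shRNA P15, control P17 or TP-0903 P4 (adjusted p = 0.056 in each). RPA3 and CHEK2, the other genes that fell in both, gave no difference past the threshold, RPA3 with 0.16 (SE 0.27, adjusted p = 0.71) and CHEK2 with -0.33 (SE 0.21, adjusted p = 0.3). Of the 21 calls 16 passed under every alternative. BARD1 lost its call with effective lengths and on the log2(TPM + 1) scale (adjusted p = 0.307 and 0.249), as did RAD51C (0.058 and 0.068). With the replicate block PALB2 and RPA1 passed as well (adjusted p = 0.037 and 0.029).

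The drug and hairpin comparisons share no library, so their calls can be set side by side. FANCA, FANCM, RAD54L, XRCC2 and XRCC3 rose with the AXL shRNA, with the rises of RAD54L and XRCC3 uncertain, and fell with TP-0903. BRCA1, CHEK2 and RPA3 fell in both. ATM and RAD50 fell with the AXL shRNA and did not pass with TP-0903, 14 genes fell with TP-0903 and did not pass with the AXL shRNA, RPA2 rose with the AXL shRNA and did not pass with TP-0903, and ATR, NBN and PALB2 passed in neither. A missed call does not show that the effects differ: for RPA1, 1 of the 14, the difference was -0.50 (SE 0.17, adjusted p = 0.076). With the replicate block RPA1 fell in both, RPA2 fell with TP-0903, NBN passed with TP-0903, and ATR, BRCA2 and FANCB passed with the AXL shRNA. The starting points differed: the control held 1882 and 1609 CPM of the 28 genes together and the control shRNA 844 and 876 CPM.

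When the treated groups were set against each other directly, AXL shRNA minus TP-0903, 9 of the 28 were higher and 3 lower, against 15% and 15.1% of all tested genes, with a median of 0.25. On the log2(TPM + 1) scale 3 of the 28 were higher and 5 lower, and of all genes 1589 and 3408, against 2644 and 2663 in the counts. XRCC2 was highest, at 8.85 and 12.2 CPM against 3.02 and 2.64 CPM, 1.90 (SE 0.27, adjusted p = 0.0031). XRCC3 followed at 1.26 (SE 0.15, adjusted p = 0.002) and BRCA2 at 1.19 (SE 0.28, adjusted p = 0.017), then RAD54L, FANCA, BLM, RPA2, FANCM and FANCI at 0.65 to 1.16. KLC1, which overlaps XRCC3 on the opposite strand, was higher here too (0.61, adjusted p = 0.0089). The XRCC3 difference is therefore uncertain here as well, and no alternative fit took up the overlap. RPA3 at -1.54 (SE 0.19, adjusted p = 0.0022), RAD50 at -0.79 (SE 0.12, adjusted p = 0.0034) and ATR at -0.47 (SE 0.10, adjusted p = 0.014) were lower. BRCA1, at 8.75 and 10.4 CPM and 13.6 and 13.1 CPM, gave -0.48 (SE 0.19, adjusted p = 0.1), and passed with no filter on low counts (-0.50, adjusted p = 0.027), with effective lengths (-0.61, 0.040) and on the log2(TPM + 1) scale (-0.63, 0.047). With effective lengths and on the log2(TPM + 1) scale, ATR (adjusted p = 0.12 and 0.067) and BRCA2 (0.10 and 0.21) lost their calls. XRCC2, XRCC3, FANCA, RPA3 and RAD50 passed under every alternative, and 3 were higher without AXL shRNA P3, without TP-0903 P17 and without TP-0903 P4.

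Other genes of the pathway, taken from a list of 50 further recombination and Fanconi genes, moved less uniformly. With TP-0903, 24 of the 50 fell and 1 rose, with a median of -0.67. Among the falls were MCM8, a helicase of recombination, with -2.06 (SE 0.13, adjusted p = 0.00047), PSMC3IP, a strand exchange cofactor, with -2.92 (SE 0.19, adjusted p = 0.00048) and DNA2, a resection nuclease, with -2.39 (SE 0.17, adjusted p = 0.00056). The gene that rose was EME2, which encodes a partner of the nuclease MUS81, from 26.2 and 25.8 CPM to 58.9 and 46.7 CPM, 1.02 (SE 0.14, adjusted p = 0.0049). With the control shRNA against the control, 21 of the 50 were lower and 0 higher, with POLQ, the polymerase of end joining by microhomology, at -3.17 (SE 0.26, adjusted p = 0.00092). With the AXL shRNA 8 of the 50 (16%) rose and 14 (28%) fell, where 18.5% and 19% of all tested genes did. FANCF, an adaptor of the Fanconi core, fell from 30.04 and 30.1 CPM to 10.9 and 9.31 CPM, -1.57 (SE 0.15, adjusted p = 0.00066), and DNA2 rose from 8.21 and 7.06 CPM to 18.2 and 18 CPM, 1.24 (SE 0.16, adjusted p = 0.0015).

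Of 18 damage signalling partners 10 fell and 0 rose with TP-0903. Those with the smallest p were TIMELESS (-2.01, SE 0.17), which travels with the replication fork, TOPBP1 (-1.26, SE 0.12), the activator of ATR, and CLSPN (-3.48, SE 0.33), which links ATR to CHEK1. With the AXL shRNA 7 of the 18 (38.9%) rose and 3 (16.7%) fell, the falls near the 19% of all tested genes. CDC25A, the phosphatase that CHEK1 restrains, rose from 3.14 and 2.57 CPM to 25.6 and 37.3 CPM, 3.46 (SE 0.28, adjusted p = 0.00041). In the control it was at 23.0 and 15.8 CPM. Of 10 genes of end joining, the repair route that needs no template, 2 fell with TP-0903, XRCC4 (-0.88, SE 0.19) and PRKDC (-0.53, SE 0.12), and the median was -0.37. Of the 7 mismatch repair partners 3 fell with TP-0903, and with the AXL shRNA 1 rose (14.3%) and 3 fell (42.9%), against 18.5% and 19% of all tested genes.

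Against the plain control, genes of the dividing cell were lower along with most of the 28, both with TP-0903 and with the control shRNA. Of 35 genes of the G1/S transition 33 fell and 0 rose with TP-0903, and of 30 G2/M genes all 30 fell, with medians of -2.58 and -2.89. The G2/M genes summed to 4540 and 3173 CPM in the control, 658 and 553 CPM with TP-0903, 429 and 496 CPM with the control shRNA and 572 and 662 CPM with the AXL shRNA, and the G1/S genes to 3963 and 3019, 805 and 826, 909 and 909 and 1216 and 1360 CPM in the same order. In that order MKI67, the proliferation marker, was at 381 and 238 CPM, 46.7 and 33.3 CPM, 28.6 and 28.5 CPM and 30.3 and 26.9 CPM. CDK1, the mitotic kinase, was at 149 and 105 CPM, 16.2 and 16.3 CPM, 17.2 and 15.1 CPM and 27.0 and 25.3 CPM. All 35 and all 30 were lower with the control shRNA than in the control. With the AXL shRNA 16 of the 35 and 10 of the 30 rose, and 3 and 0 fell. The rises were 45.7% and 33.3%, against 18.5% of all tested genes. Of the 28, 21.4% rose and 17.9% fell with the AXL shRNA, near the 18.5% and 19% of all tested genes. Control P17 had more of these genes than control P4, and 26 of the 28 recombination genes were also higher in control P17. The part of cell division in the changes of the 28 was not tested.

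Of 20 targets of p53, the factor that halts the cycle after damage, 12 rose and 0 fell with TP-0903, 10 rose (50%, against 18.5% of all tested genes) and 1 fell with the AXL shRNA, and 4 rose and 0 fell with the control shRNA against the control. CDKN1A, an inhibitor of cyclin-dependent kinases, was at 169 and 268 CPM in the control, 636 and 602 CPM with TP-0903, 309 and 440.3 CPM with the control shRNA and 979 and 829.6 CPM with the AXL shRNA. Its log2 change was 1.5 (SE 0.25, adjusted p = 0.012) with TP-0903 and 1.27 (SE 0.25, adjusted p = 0.0076) with the AXL shRNA. In the same order MDM2, which marks p53 for degradation, was at 124 and 149.7, 283 and 316, 173 and 257 and 385 and 346 CPM. With the AXL shRNA, against the control shRNA, 6 of the 28 rose and 5 fell, where 18.5% and 19% of all tested genes did. With TP-0903, against the control, 22 of the 28 fell, where 6.35% of all tested genes did. The part of p53 in the changes of the 28 was not tested. PCNA, the clamp that repair and replication share, was at 396 and 306 CPM in the control, 156 and 156 CPM with TP-0903, 168 and 176 CPM with the control shRNA and 192 and 171 CPM with the AXL shRNA.

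**Figure D4:**
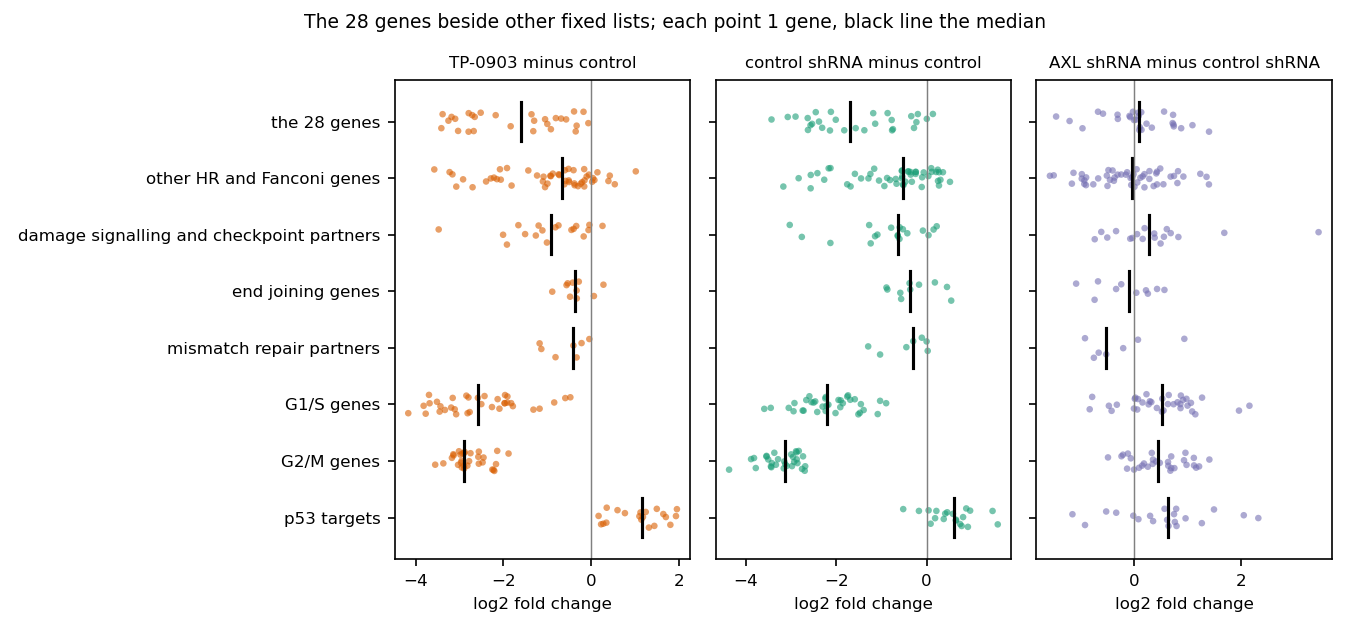
Log2 fold change of each gene in the 28 and in 7 other lists, for 3 comparisons, with a black line at each median. With TP-0903 the 28 have a median of -1.59, between the further recombination genes at -0.67 and the G2/M genes at -2.89, and p53 targets lie to the right at 1.17.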

How the data were processed

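The authors aligned reads with STAR 2.5.3a and quantified genes with RSEM on GRCh38, per the submitters' processing notes; the sources used here do not give the RSEM version, the annotation or the use of strand. Each deposited table lists, per the file headers, expected counts per gene (RSEM estimates that need not be whole), TPM, FPKM, length and effective length. TPM in the deposited tables is scaled by the authors' tool to transcript length and library. FPKM, the other length-scaled value the authors deposited, was not used.

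The 28 genes and all gene lists were chosen with earlier results of these data known. Expected counts were rounded to whole numbers. In R 4.3.3, edgeR 4.0.16 (filterByExpr, TMM scaling, quasi-likelihood test) was fitted to all 8 libraries with 1 mean per group, and p-values were Benjamini-Hochberg adjusted over 17676 genes, with a threshold of 0.05. Every adjusted p below a named gene is from this fit unless another is named. The fit had 4 residual degrees of freedom and a common biological coefficient of variation of 21.5%. Library totals ran from 30067011 to 44217023 expected counts. The script was tested on simulated counts.

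Libraries with the same P number deviated together from their group means. Over all genes r was 0.444 between the hairpin groups and 0.450 between the drug groups (4 pairs). With 2 libraries a group the 2 pairs of an arm mirror each other. Over the recombination and Fanconi genes followed here r was lower, at 0.133 and 0.329. Between P15 and P17 libraries, whose numbers differ, r was 0.171 to 0.309 over all genes. Over the genes followed here it was -0.209 to 0.409 between these libraries. The numbers were taken to pair libraries, and a fit with the P number as a block was added. Further alternatives were RLE and upper quartile scaling, no low-count filter, effective lengths as offsets, DESeq2 1.42.0, limma 3.58.1 (voom, and log2(TPM + 1)), the 4 libraries of a comparison alone, and each library left out.

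All 28 genes are named. Of each other list, up to 3 genes a comparison and direction with the smallest p among those past the threshold were eligible to be named, besides AXL, CDKN1A, MDM2, CDK1, MKI67 and PCNA. Gene overlaps and positions come from GENCODE 29 (GRCh38), which held 58039 of the 58302 gene identifiers; promoters come from RefSeq. Distances count the first base at the start as +1, with no 0. Some genes of the lists are counted but not reported here by name.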

Additional observations from a re-analysis of the deposited data

How the results depend on the processing

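Scaling by RLE or upper quartile, DESeq2 and limma-voom left every count of called genes among the 28 within 1.5 times. On the log2(TPM + 1) scale 0 of the 28 rose with the AXL shRNA, and against TP-0903 3 were higher and 5 lower in the AXL shRNA group. Leaving out 1 library gave 1 to 6 rises with the AXL shRNA, 0 to 1 higher differences of effects, and 3 to 8 higher and 2 to 5 lower genes for AXL shRNA against TP-0903. With the P number as a replicate block, which cannot be estimated across the arms, the calls named in the report (RPA2 and NBN with TP-0903; BRCA2, FANCB, RPA1 and ATR with the AXL shRNA; PALB2 and RPA1 for the difference) were gained, with 24 falls with TP-0903, and no other call among the 28 changed. Signs turned only in values that were not past the threshold in the reported fit. For AXL shRNA against control shRNA, BLM was at 0.0088 with RLE, 0.0044 with upper quartile, 0.027 with effective lengths and 0.011 with DESeq2, and MSH6 at -0.023 with no filter, -0.014 with the replicate block, -0.015 with voom and -0.076 on TPM. Effective lengths gave BARD1 -0.66, RAD51AP1 -0.11, FANCD2 -0.16 and EXO1 0.19. On TPM BARD1 was at -0.49, BRCA2 -0.015, RAD51AP1 -0.31, RAD51C -0.061, FANCD2 -0.31 and CHEK1 -0.0023. For AXL shRNA against TP-0903, CHEK2 was at 0.0071 with RLE, 0.032 with upper quartile and 0.0083 with DESeq2, ATM at 0.034 with effective lengths, and CHEK1 at -0.035 and NBN at -0.051 on TPM. For the difference of effects CHEK2 was at 0.34 with effective lengths and 0.47 on TPM, and NBN at 0.012 on TPM. For control shRNA against control CHEK2 was at 0.13 in both. Effective lengths and TPM both take up the library's own transcript lengths; the cause was not tested. Leaving out 1 library moved BARD1 from -0.26 to 0.38, RAD51AP1 from -0.25 to 0.34, FANCD2 from -0.090 to 0.15, BLM from -0.28 to 0.19, MSH6 from -0.26 to 0.22, CHEK1 from -0.012 to 0.18 and MRE11 from -0.010 to 0.22 with the AXL shRNA. It moved BARD1 from -0.44 to 0.20, BRIP1 from -0.40 to 0.18, CHEK2 from -0.080 to 0.062 and MSH6 from -0.10 to 0.42 for AXL shRNA against TP-0903, RAD50 from -0.12 to 0.13 for control shRNA against control, and ATR from -0.11 to 0.017 with TP-0903. Over all genes TP-0903 gave 866 rises and 1123 falls, against 1682 and 1833 with no filter 2285 and 2362 with the replicate block and 1492 and 1510 with DESeq2. Control shRNA against control gave 541 higher and 1077 lower, against 1683 and 1669 with no filter, 1211 and 1547 with DESeq2 and 196 and 547 in the 4 libraries alone. The difference of effects gave 1736 and 1909, against 3282 and 3248 with the replicate block. Leaving out 1 library gave 128 to 785 rises and 361 to 983 falls with TP-0903, 33 to 442 higher and 310 to 835 lower for control shRNA against control, 2079 to 3041 rises and 2308 to 3064 falls with the AXL shRNA, 847 to 1255 and 1008 to 1415 for the difference, and 1046 to 2545 and 1404 to 2639 for AXL shRNA against TP-0903. The 2 libraries a group limit the precision: the changes of ATR and NBN passed in some fits and not in others.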

Other observations

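Several repair genes outside the 28 changed with the AXL shRNA, in both directions. Among the mismatch repair genes PMS2 (-0.92) and MSH3 (-0.66) fell by the edgeR log2 change. In end joining POLL (-0.74) and POLM (-1.08), polymerases that fill gaps at joined ends, fell. XRCC4 (0.57, edgeR adjusted p = 0.0499) and XRCC6 (0.43, edgeR adjusted p = 0.039) rose. These were 20% rises and 20% falls among 10 genes, near the 18.5% and 19% of all tested genes. ZSWIM7, a recombination gene, fell (-1.50), as did the crosslink nuclease FAN1 (-0.98), and both had a higher effect with TP-0903 by the interaction term (1.35 and 0.83).

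Of the p53 targets, BTG2 rose with the AXL shRNA (2.33) and with TP-0903 (1.94), while PHLDA3 fell with the AXL shRNA (-0.92), and its difference of effects was 2.10. The keratins KRT8 (1.94), KRT18 (1.78) and KRT19 (3.45) rose with the AXL shRNA.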
